A study of Arapaima gigas with 24 samples.

Results

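A set of 150 gene models was examined whose levels separated testes from ovaries in Arapaima gigas while their mean levels in the brains of the sexes stayed close together. They were chosen by their measured sex differences from the 22016 gene models of the count table. The level L of a gene model in a sample was log2(CPM + 0.5) minus the median of that value over all gene models of the sample, where CPM is the usual library-size-scaled count. After the 220 gene models of highest mean CPM were dropped, 21796 remained. In 2486 of these the L values of 3 testes and 3 ovaries did not overlap, and in 8198 the mean male minus female difference in brain was under 0.1 in absolute value. Both limits were met by 780 gene models, 488 male-higher and 292 female-higher in gonad. The 150 with the largest absolute gonad difference were kept, 84 of them male-higher and 66 female-higher.

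The study counted poly(A) RNA in gonad and brain of 6 fish of A. gigas (pirarucu, a large air-breathing river fish of South America), to ask which genes differ in expression between males and females. The groups were testes of 3 males, ovaries of 3 females, brains of the same 3 males and brains of the same 3 females, all from farm-raised animals aged 4 years or more, 100 to 120 cm long and in their breeding season, with no treatment named in the labels. Males were recognised by sperm cells inside the testis and females by primary oocytes. From the sample titles, which do not spell this out, every fish and tissue was taken to have a pair of libraries, called run 1 and run 2 here, and their counts were summed to give 12 samples with totals of 5689872 to 13142667 counts. These are whole organs, in which fewer cells of a type and less RNA per cell cannot be told apart.

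In vertebrates the ovary holds oocytes that store RNA for the early embryo, surrounded by follicle cells, while the testis holds germ cells in meiosis and sperm formation beside somatic support and steroid-producing cells. Sex-different expression in adults is usually far more extensive in gonads than in brain. The teleost brain nevertheless responds to gonadal steroids and itself makes oestrogen through aromatase. In these samples the order was the reverse. The sexes did not overlap in 26.2% of all gene models in brain and in 11.4% in gonad, and the reason was not tested. With so few fish per sex, some gene models are apart without any sex difference. That share was not computed, so neither percentage measures an amount of sex difference. With edgeR's quasi-likelihood test 5.83% of gene models in gonad were at an unadjusted p under 0.05, against 18.2% in brain. The gonad share was thus close to the limit itself. The table pairs no gene names with its identifiers, so no role can be given to a member here. The tissues were not checked against marker genes, so the names testis, ovary and brain rest on the sample labels.

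The members were separated by modest amounts. Over the 84 male-higher members the median male minus female difference of L in gonad was 0.43, with quartiles of 0.39 and 0.50 and a highest value of 0.80. Over the 66 female-higher members the median was -0.49, with quartiles of -0.71 and -0.41 and a most negative value of -1.29. As folds, 2 to the power of the absolute difference of L, the medians were 1.35 and 1.40. These folds depend on centring on sample medians. With library totals alone the median log2 differences were 0.62 in male-higher and -0.30 in female-higher members. A fold of at least 1.5 was held by 10 male-higher and 23 female-higher members, and a fold of at least 2 by 4 members, all female-higher. These values chose the members and are given as a description, without a test. Sexes did not overlap in gonad in 11.4% of all gene models, in 7.27% with males higher and in 4.14% with females higher, and in every member by construction. How much of these shares arises from the small number of fish alone was not computed.

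**Figure D1:**
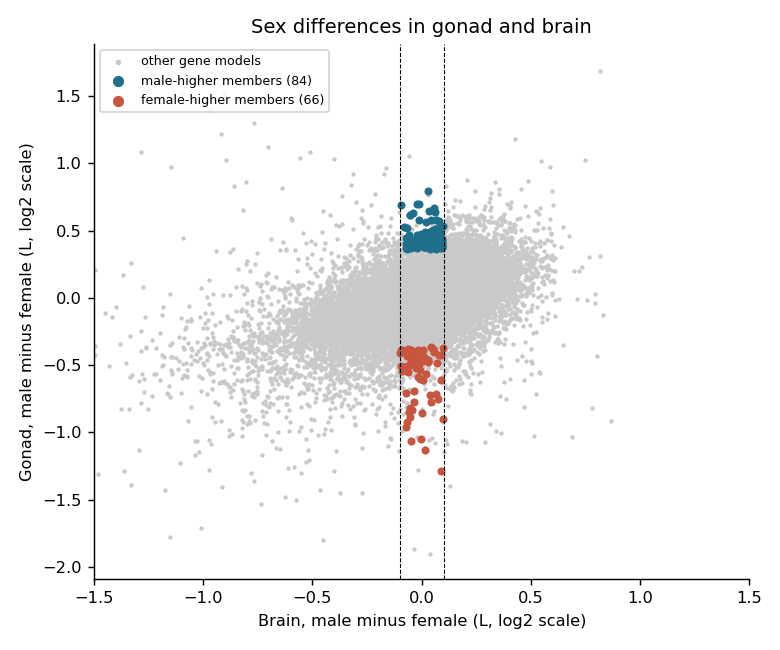
Male minus female difference of L in brain (horizontal, dashed lines at 0.1 on either side of 0) and in gonad (vertical) for the 21796 gene models, with 84 male-higher members in blue and 66 female-higher members in red. The members lie between the dashed lines and beyond 0.36 on the vertical axis, female-higher members reach farther from 0 than male-higher ones, and 22 other gene models lie outside the horizontal range of 1.5.

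The limits cut through a continuum. The last member kept had an absolute gonad difference of 0.36332 and the first gene model left out 0.36326. The brain difference of the member nearest the limit was 0.0995, against 0.101 in the nearest gene model that failed only there, and 580 gene models failed only there. The smallest gap between the sexes in gonad was 0.00198 among members, and the smallest overlap among the 226 gene models that failed only on overlap was 0.00491. Among the 220 dropped gene models, whose mean level was at least 297 CPM, 2 met both limits with gonad differences beyond that of the last member.

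Whole-table tests put the label of the set in proportion. With edgeR's quasi-likelihood test over all gene models, 0 of 22001 were called between testis and ovary at an adjusted p under 0.05, and 5.83% were at an unadjusted p under 0.05, among them 126 of the 149 members tested. DESeq2 called 32 (0.145%), of which 4 were members, and placed 7.38% at an unadjusted p under 0.05, with 128 members among them. For the sex difference in gonad minus that in brain, edgeR called 0 of 22015 and placed 2.59% at an unadjusted p under 0.05, 62 members among them, where DESeq2 called 2 (0.00908%), neither of them a member, and placed 2.75% and 60 members at an unadjusted p under 0.05. In brain, edgeR called 0 of 22015 with 18.2% at an unadjusted p under 0.05, and DESeq2 called 1359 (6.17%) with 17.4% at an unadjusted p under 0.05. No member was at an unadjusted p under 0.05 in brain by either tool, and DESeq2 left the adjusted p of 69 members undefined there. All 3 comparisons served the choice of members, so nothing is read from these counts about them. Sexes did not overlap in brain in 26.2% of all gene models but in 1 of the 150 members, since the limit on the brain mean removes most such cases.

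The male-higher member with the largest gonad difference stood at 13.0, 13.8 and 26.3 CPM in the testes of males 1, 2 and 3, against 9.39, 7.45 and 7.99 CPM in the ovaries of females 1, 2 and 3. The brains held 13.4, 14.7 and 14.8 CPM in males and 11.0, 8.49 and 15.8 CPM in females. All 3 testes were above all 3 ovaries, with the testis of male 3 far above the others, and the brains of the sexes overlapped. Mean L was -0.58 ± 0.65 in testes and -1.38 ± 0.12 in ovaries (SD, n = 3 fish each), a difference of 0.80. Without male 3 the difference was 0.42.

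The male-higher member with the next largest difference was more even between fish. The testes held 17.1, 20.7 and 18.4 CPM and the ovaries 10.8, 9.44 and 9.44 CPM. The brains held 15.1, 17.7 and 15.3 CPM in males and 15.3, 10.3 and 14.8 CPM in females. Testes lay above ovaries with a gap larger than the spread inside either group, and the brains overlapped. The difference of L in gonad was 0.70, from means of -0.43 ± 0.09 in testes and -1.13 ± 0.08 in ovaries (SD, n = 3 fish each), and it was 0.42 in run 1 and 0.98 in run 2.

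The largest gonad difference of all members belonged to a female-higher one. Its testes held 17.7, 20.6 and 16.3 CPM and its ovaries 20.0, 34.8 and 87.0 CPM. The brains held 20.8, 21.9 and 22.9 CPM in males and 20.1, 15.0 and 15.6 CPM in females. The ovary of female 3 exceeded every other sample, and the ovary of female 1 stood at the level of the brains and of the testis of male 2. In CPM the testis of male 2 even exceeded the ovary of female 1, so that the groups were apart only after the sample medians were subtracted. Mean L was -0.47 ± 0.02 in testes and 0.81 ± 1.06 in ovaries (SD, n = 3 fish each), a difference of -1.29, which was -0.73 without female 3.

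The female-higher member with the next largest difference had 17.3, 19.9 and 14.3 CPM in testes and 27.6, 29.8 and 44.0 CPM in ovaries. All ovaries were above all testes, and the gap of 0.75 on the L scale was the widest of all members. Its brains held 53.5, 21.3 and 21.4 CPM in males and 24.9, 31.1 and 16.7 CPM in females. In CPM the brain of male 1 was higher than any gonad, while on the L scale the ovary of female 3 was above it, at 0.95 against 0.89. The near-zero brain difference of 0.02 averaged over brains that were far apart. It moved to -0.41 without male 1 and to 0.30 without female 2.

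**Figure D2:**
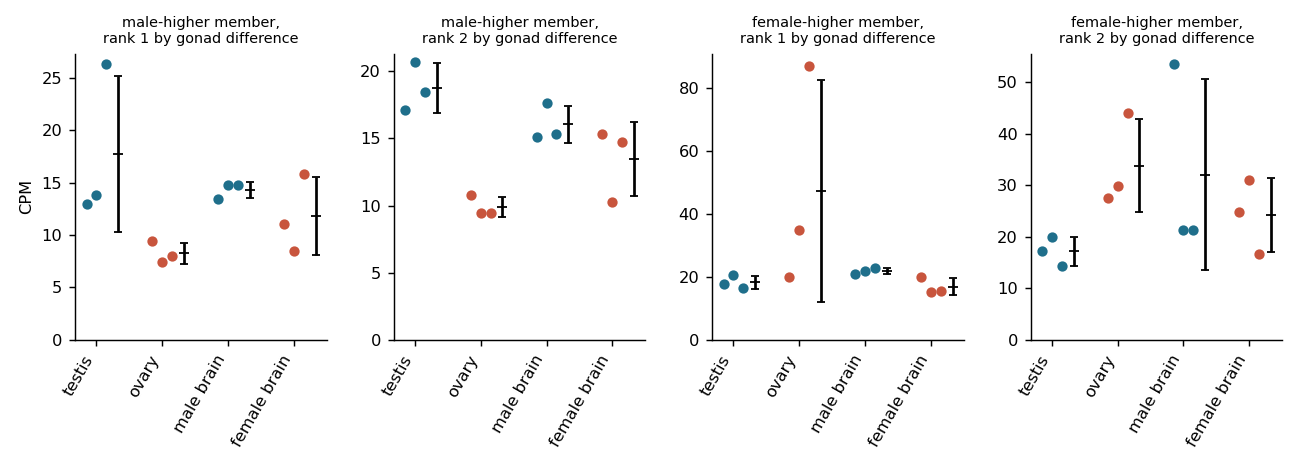
CPM (vertical, from 0) of the 2 male-higher and 2 female-higher members with the largest gonad difference, with 1 point for each of 3 fish per group and the mean and SD beside them, for testis, ovary, male brain and female brain. Male points are blue and female points red, and the testis of male 3, the ovary of female 3 and the brain of male 1 stand apart at 26.3, 87.0 and 53.5 CPM.

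Both directions of the set showed the ovary, more than the testis, away from the level of the brain. In male-higher members the median of L in testis minus male brain was 0.11 and in ovary minus female brain -0.29. In female-higher members the medians were -0.12 in testis minus male brain and 0.35 in ovary minus female brain. The values compared here are those that chose the members, so the counts are a description. Over all gene models outside the 220 the range of L had a median of 0.29 over 3 testes and 0.36 over 3 ovaries. The part of this difference in the counts was not tested. The ovary lay farther from brain in 65 of 84 male-higher and 54 of 66 female-higher members, 119 of 150 or 79.3%, against 50.8% of all 21796 gene models. Of the 630 gene models that met both limits and were not kept it lay farther in 68.1%. This count was added after the values were seen and was not tested. With 1 fish left out the count in members ran from 107 to 128, while the share of all gene models ran from 39.9% without male 2 to 60.1% without female 1. Without centring on sample medians the ovary lay farther in 82 of 84 and 34 of 66 members, against 33.3% of all gene models.

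Testis above male brain with ovary below female brain was seen in 69 of the 84 male-higher members, and both gonads below brain in 14, against 18.6% and 31.5% of the 21796 gene models. Testis below male brain with ovary above female brain was seen in 50 of the 66 female-higher members, and both gonads above brain in 13, against 22.4% and 27.5%. Set against the range of the 6 brains, all 3 ovaries lay below it in 34 male-higher members and all 3 testes above it in 7, against 2.68% and 0.973% of the 21796. Among female-higher members all 3 ovaries lay above the range in 17 and all 3 testes below it in 8, against 1.31% and 1.04%. All 3 testes lay inside the range of the brains in 26 male-higher and 22 female-higher members, whereas all 3 ovaries did so in 3 and 8. Over the 21796 gene models the testes lay inside in 36.3% and the ovaries in 25.5%. These counts too use values that chose the members.

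**Figure D3:**
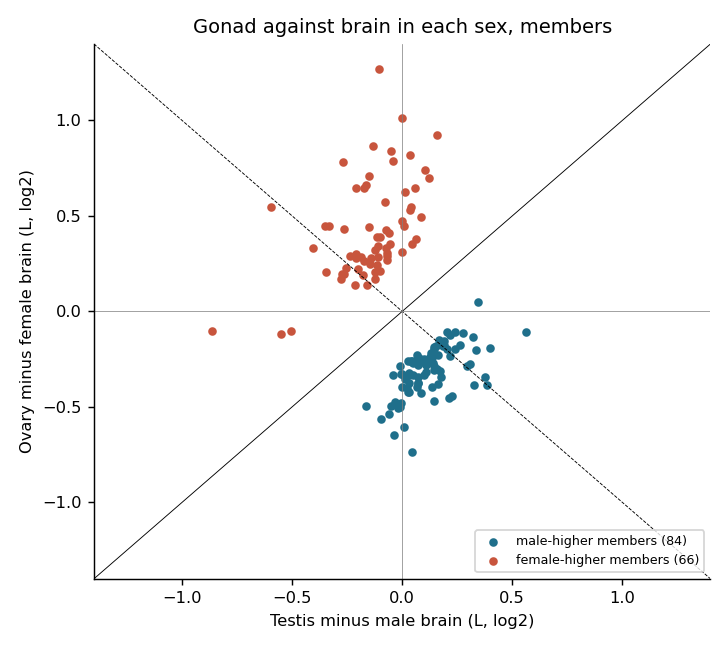
Testis minus male brain (horizontal) and ovary minus female brain (vertical) in mean L for the 150 members, male-higher in blue and female-higher in red, with lines of equal difference (solid) and of equal size and opposite sign (dashed). Points above or below both diagonals, 119 of 150, are members whose ovary lies farther from brain than their testis, and medians are 0.11 and -0.29 for male-higher members and -0.12 and 0.35 for female-higher members.

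The difference between gonad and brain averaged over the sexes was not itself a limit of the choice. It is not free of the choice, since a level that departs in 1 sex's gonad also moves this average. The demand for no overlap also bears on the spread within each gonad, which is part of the error of this test. Counts of members below are thus a description. The edgeR test over 12 samples in 4 groups called 1 of 22015 gene models (0.00454%) and 0 of 150 members (smallest adjusted p of a member = 0.710). At an unadjusted p under 0.05 stood 3.55% of all gene models as higher and 3.08% as lower in gonad. Among members 15 were higher and 11 lower in gonad at that level, 26 of 150, against 6.63% of all gene models in either direction. The 15 higher were all female-higher members, and of the 11 lower 9 were male-higher members. Scaling by library totals gave 4 higher and 18 lower members, with 1.13% of all gene models higher and 7.86% lower. Without male 1 the counts were 6 higher and 4 lower, with 2.50% and 1.86% of all gene models, and upper-quartile scaling gave 12 and 17, with 2.27% and 5.03%. With the fish as a block the count was 8 of 150, against 5.74% of all gene models. That fit had no term for sex by tissue. The sex difference in gonad but not brain that chose the members thus counted as error in it. The lower count is therefore no check of the 26. DESeq2 called 24 gene models (0.109%) and 2 members (smallest adjusted p of a member = 0.0223), and limma-voom called 1 gene model and 0 members (0.00454%). At an unadjusted p under 0.05 stood 25 members and 7.96% of all gene models with DESeq2, and 22 members and 5.61% with limma-voom. Gonad and brain were thus close over the whole table. Over all gene models outside the 220, gonad minus brain in L had quartiles of -0.08 and 0.08. Its lowest and highest values were -1.48 and 1.32. The counts set the tissues little apart, and the reason was not tested.

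The median fitted log2 gonad minus brain difference was -0.10 over male-higher members and 0.13 over female-higher members, against 0.01 over all gene models. The fitted value was below 0 in 65 of 84 male-higher members and above 0 in 54 of 66 female-higher members. With the fish as a block these counts were 61 and 54, with medians of -0.07 and 0.12. The gonad values that chose the members enter this average, so the signs are a description. Scaling by library totals put the median of all gene models at -0.11 and the medians of the members at -0.22 and 0.01. Relative to that shift male-higher members were still lower and female-higher members still higher in gonad.

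The per-sample medians of the set lay close together within each gonad. Relative to each gene model's mean over 6 brains, the median of male-higher members was 0.11, 0.16 and 0.10 in testes 1, 2 and 3, against -0.26, -0.34 and -0.30 in ovaries 1, 2 and 3. For female-higher members it was -0.11, -0.13 and -0.14 in testes and 0.21, 0.39 and 0.30 in ovaries. The choice of members fixes that these groups lie apart. By these medians ovary 2 was farthest from the mean of the 6 brains in both directions. No ovary was set against the brain of its own fish here, and that order can differ. Ovary 2 was the lowest gonad in 36 of 84 male-higher members and the highest in 30 of 66 female-higher members. Among testes, that of male 2 was most often the highest, in 37 male-higher members, and that of male 3 most often the lowest, in 27 female-higher members. In members the choice fixes which organ is lowest and which is highest, so these counts are among 3 gonads. Shares of all gene models are among 6, so counts and shares are not on 1 scale. Over the 21796 gene models ovary 2 was the lowest gonad in 18.2% and the highest in 14.5%. Testis 2 was the highest in 22.4% and testis 3 the lowest in 16.1%. Ovary 3 led the ovaries there, as the lowest gonad in 22.4% and the highest in 21.8%, and testis 2 was the lowest in 19.6%. Among the 630 gene models that met both limits and were not kept, the same gonads led their organ. Ovary 2 was lowest in 152 and highest in 88, testis 2 highest in 176 and testis 3 lowest in 104. The order was thus shared with gene models that met the same limits. For ovary 2 and testis 3 it was not shared with all 21796.

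**Figure D4:**
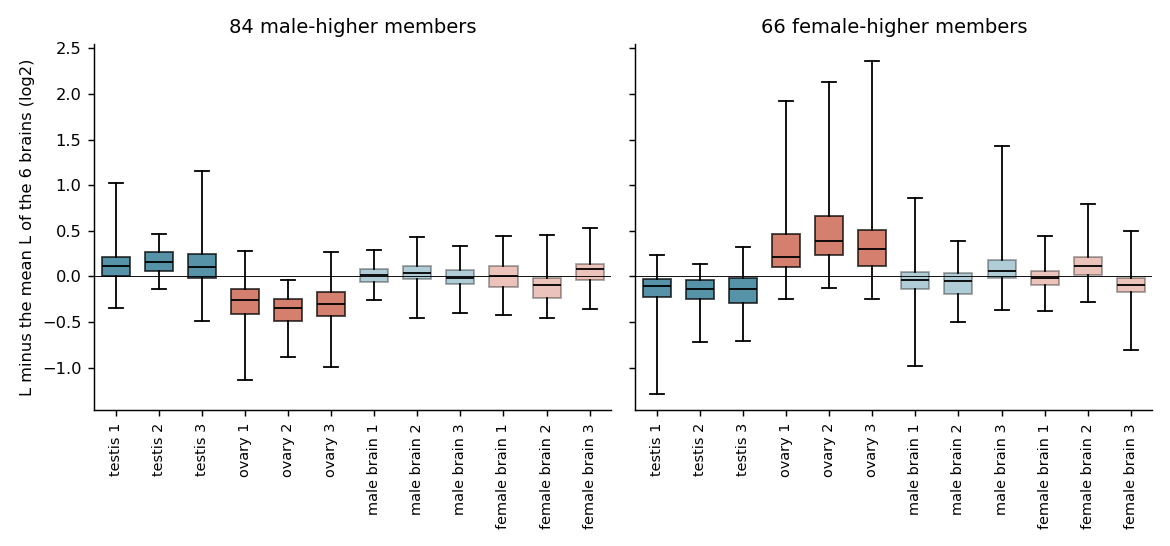
L minus the gene model's own mean over the 6 brains (vertical, log2 scale) in each of 12 samples, for 84 male-higher members (left) and 66 female-higher members (right), with males in blue, females in red, boxes at the quartiles with the median and whiskers to the lowest and highest member. Testis medians lie at 0.10 to 0.16 and ovary medians at -0.34 to -0.26 on the left, testis medians at -0.14 to -0.11 and ovary medians at 0.21 to 0.39 on the right, and brain medians between -0.10 and 0.11.

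Brains of 1 sex were not alike in these gene models. The range of L over the 3 male brains had a median of 0.25 over members and that over the 3 female brains 0.33, against 0.18 and 0.27 over all gene models outside the 220. Over all 6 brains the median range was 0.405 in members and 0.410 in all gene models outside the 220. Level was not matched in these comparisons. Brain median values relative to the 6-brain mean ran from -0.09 in female 2 to 0.08 in female 3 for male-higher members. For female-higher members the same brains stood at 0.11 and -0.10. The brain median of female 2 thus lay on the side of the 6-brain mean where the medians of all 3 ovaries lay. That of female 3 lay on the other side. Since all 3 ovaries shared that side, this does not link a brain to the ovary of its own fish. With 1 fish left out, 90 to 110 of the 150 members still had a brain difference under 0.1, the fewest without female 3. Of the 21796 gene models 7078, without female 1, to 9329, without female 2, were then under 0.1.

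Female-higher members were less even between ovaries than male-higher members between testes. The range of L over 3 ovaries had a median of 0.54 in female-higher members and 0.31 in male-higher members. Over 3 testes it was 0.19 and 0.29. In 11 of the 66 female-higher members 1 ovary was at least 2-fold above the other 2, against 2.42% of all gene models, and in 17 at least 1.5-fold, against 8.90%. No male-higher member had 1 testis at least 2-fold above the others, and 6 had 1 at least 1.5-fold above, against 1.80% and 7.08% of all gene models, so that the 6 were at the background. In these 11 the mean over ovaries rests largely on 1 fish.

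The directions also differed in level. Male-higher members had a median mean level of 9.63 CPM, with quartiles of 6.78 and 13.5 CPM, and 53 of 84 fell in the lowest of 5 equal classes of mean CPM, which held 20.2% of the 21796 gene models. Female-higher members had a median of 31.2 CPM, with quartiles of 15.8 and 58.7 CPM, and 11 of 66 fell in that lowest class and 19 in the highest. The median of all 21796 gene models was 24.9 CPM.

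**Figure D5:**
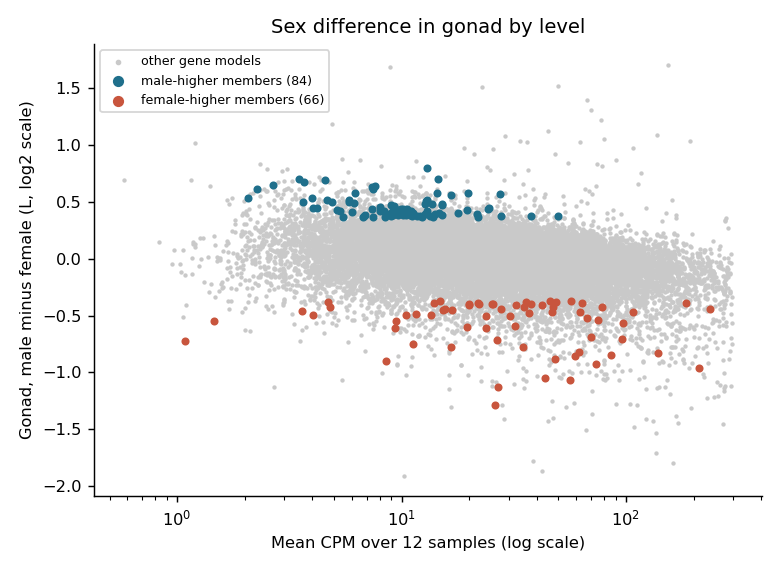
Male minus female difference of L in gonad (vertical) against mean CPM over 12 samples (horizontal, log scale) for the 21796 gene models, with 84 male-higher members in blue and 66 female-higher members in red. Male-higher members gather at low levels, with a median of 9.63 CPM, and female-higher members spread to higher ones, with a median of 31.2 CPM and a highest value of 237 CPM.

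Counting error weighed more on the male-higher members. The lowest count of a member in any gonad had a median of 49.5 in male-higher and 188.5 in female-higher members, with a lowest of 2. The standard error of the gonad difference from counting alone had a median of 0.14 in male-higher and 0.07 in female-higher members, so that the difference was a median of 3.16 and 6.77 times this error. Because members were kept for a large gonad difference, the choice favours high ratios. The difference was over 2 times the error in 147 of 150 members, with no share over all gene models given here. This error leaves out the spread between fish, and no member had a count of 0 in a gonad.

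The runs, read from the sample titles as libraries of the same fish and tissue, were both used in the choice. The sign of the gonad difference was the same in run 1 and run 2 in 149 of 150 members, the exception being male-higher. The median difference was 0.45 in run 1 and 0.44 in run 2 for male-higher members, and -0.54 and -0.49 for female-higher members. The separation was less stable, as the sexes did not overlap in run 1 alone in 91 members, in run 2 alone in 94 and in each of them alone in 45. Of the 21796 gene models outside the 220, 2346 were apart in run 1 alone and 2284 in run 2 alone. Among the 150 members the brain difference was under 0.1 in both runs in 53. Of the 21796 gene models it was under 0.1 in 7600 in run 1 alone and in 7701 in run 2 alone. Neither count over both runs, the 45 or the 53, has a share over all gene models here.

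The small brain differences of the members held with centring on sample medians and nearly all with TMM scaling. They held in part with each sample's abundance trend removed, and not with library totals alone. The median gene model was 0.28 higher in male than in female brains and 0.19 higher in testes than in ovaries on the log2(CPM + 0.5) scale. With library totals alone the median male minus female brain difference was 0.33 in male-higher and 0.27 in female-higher members, and none of the 150 was under 0.1. The gonad differences kept their sign in all members, with medians of 0.62 in male-higher and -0.30 in female-higher members. The sexes then stayed apart in 84 of 84 male-higher and in 13 of 66 female-higher members. Of the 21796 gene models 4127 were apart on this scale in either direction. By mean difference in gonad 18097 of the 21796 were male-higher and 3699 female-higher, apart or not. The share apart in each direction was not computed, so the 84 and the 13 have no background of their own direction. With TMM scaling the sexes did not overlap in gonad in 82 of 84 and 66 of 66, and 83 and 62 stayed under 0.1 in brain. Of the 21796 gene models 2486 and 8294 did so. With the abundance trend removed the sexes stayed apart in gonad in 65 of 84 and 57 of 66. Under 0.1 in brain stayed 59 and 44. Over the 21796 the counts were then 2230 and 8961. The gonad medians of the members were 0.35 and -0.51.

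As a share of all counts, the female-higher members together took 0.252 ± 0.026% in testes and 0.363 ± 0.046% in ovaries, and 0.318 ± 0.050% in male brains and 0.258 ± 0.015% in female brains (SD, n = 3 fish each). The male-higher members took 0.110 ± 0.012% in testes and 0.0692 ± 0.0053% in ovaries, and 0.112 ± 0.0064% in male brains and 0.0905 ± 0.014% in female brains. On this scale both directions stood higher in male than in female brains. The 220 dropped gene models took 18.2 ± 4.37% in testes, 23.4 ± 2.63% in ovaries, 12.9 ± 1.65% in male brains and 22.2 ± 4.53% in female brains, and the part of this difference in the result was not tested.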

How the data were processed

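Poly(A) RNA libraries of gonad and brain from 6 fish were read on a SOLiD 4 instrument as 50 nt reads, with RNA integrity numbers of 8.0 to 8.5, per the labels. The authors deposited whole-number read counts per gene model for 24 libraries, not normalized. The design text of the series says that reads were aligned to the genome of a related fish, Scleropages formosus (Asian arowana). Bowtie is named in the submitters' processing notes. The counting tool, build, annotation, use of strand and filters were not given in the sources used here. Reads that diverge from the arowana sequence, or match a related copy, can be lost or misplaced, so counts of near-identical or overlapping gene models are uncertain.

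Counts of both libraries of a fish and tissue were summed. The members and lists were chosen with earlier results of these data known. Gene lists by symbol were fixed but not run, because no identifier could be matched. Values by sample are given for the 2 members per direction with the largest absolute gonad difference, and their identifiers are not reported here. Sex differences are male minus female, and tissue differences gonad minus brain. Tests used edgeR 4.0.16 (quasi-likelihood F test, TMM scaling, default expression filter) in R 4.3.3 with Benjamini-Hochberg adjustment over all gene models tested, with DESeq2 1.42.0 and limma-voom (limma 3.58.1) as alternatives. Gonad against brain used 12 samples in 4 groups, and each sex comparison the 6 samples of a tissue. In 1 member the gonad sex comparison had too few counts for the filter. Gonad and brain with 1 number are read from the sample titles as 1 fish, and on that ground the fish was also fitted as a block. The deviations of both tissues of a fish from their group means had r = -0.14 to 0.30 across gene models, over 0.1 in 1 of 6 fish. Males and females share only a number. The choice of members and the gonad against brain test were tried on simulated counts. The planted changes were larger than most differences of the members, so the simulations do not bear on differences of that size. Depth per sample sets the counting error given beside the values.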

Additional observations from a re-analysis of the deposited data

How the results depend on the processing

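Which gene models belong to the set depended on the processing. Of the 150, those kept numbered 136 with TMM scaling, 148 with no abundant gene models dropped, 111 with a pseudocount of 2, 77 with a pseudocount of 5, 43 from run 1 alone, 36 from run 2 alone, 72 with a brain limit of 0.05, 70 with a limit of 0.2, 54 with each sample's abundance trend removed, and 42 to 74 with 1 fish left out. With library totals as the only scaling 0 were kept, since the shift of 0.28 between the brains puts every member past the brain limit. A larger limit admits further gene models with larger gonad differences, and all 150 still met it. Of the 150 chosen anew, 84 were male-higher, and 53 with a pseudocount of 5, which lessens differences at low levels. With library totals as the only scaling 124 were male-higher and 26 female-higher, and the other alternatives gave 59 to 89 male-higher. Between gonad and brain, edgeR called 1 gene model and 0 members, DESeq2 24 and 2, and the replicate block, with the fish paired, 0 and 0. Each run alone gave 0 gene models, and leaving out 1 fish gave 0 to 9 gene models and 0 to 1 members, the highest without female 1. Other scalings, no filter and limma-voom each gave 1 gene model and 0 members. Why the counts moved was not tested. The count of members whose ovary lies farther from brain than their testis was chosen after the data were seen. It was 119, and 107 to 128 in the 12 alternatives run, all of which kept the same 150 members. With library totals as the only scaling it was 82 of 84 male-higher and 34 of 66 female-higher members. With 3 fish per sex, differences near the counting error of low-level members cannot be resolved.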
